A study of Mus musculus with 6 samples.

Results

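Transcript levels of 10 enzymes that break down the amino acids lysine and tryptophan were read from kidney arrays of wild-type mice and of mice homozygous for a mutation. The enzymes are Afmid, Kmo, Aadat, Kynu, Haao, Acmsd, Qprt and Ddc on the tryptophan side, and Aass, Aadat and Gcdh on the lysine side. They are listed by pathway, and each is represented by a probe that the platform annotation assigns to that gene symbol and no other. Where a gene had several such probes, 1 was chosen by its mean intensity over the 6 arrays, the highest being taken; this concerned Haao alone, with 2 probes. All 10 had a probe and all 10 passed the filter on low values, out of 18048 genes with a probe and 14817 genes tested. The members were named with earlier results of this comparison known, Aadat and Kmo among them, so counts over the members are descriptions.

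There were 3 wild-type kidneys and 3 homozygous mutant kidneys, each from a different animal, with 1 single-colour CodeLink array per animal. Kidneys were perfused with saline before freezing. The sources used here do not name the mutated gene, the strain, the age or the sex. Levels are intensities in multiples of the array median, or log2 of these, and a difference is the mutant level less the wild-type level, with the SE of a limma fit over all probes. A probe is called dim below 1.51 times the array median (0.60 in log2), a low-signal limit set from the spread of the weakest values. On each array 37.6% to 41.7% of values exceeded it. Probes had a median SD of 0.34 log2 among wild-type arrays and 0.31 log2 among mutant arrays.

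Markers of the labelled tissue were present: Umod, the thick ascending limb protein uromodulin, averaged 7.69 log2 in the wild-type kidneys and 7.74 log2 in the mutant kidneys. Alb, the albumin transcript of liver, had a mean below the limit in both genotypes, with 1 array of each above it, wild-type replicate 1 at 2.72 and mutant replicate 3 at 1.93. Other transcripts listed as hepatocyte markers were bright on every array, Ttr between 57.7 and 119 and Cyp2e1 between 45.8 and 95.7. Their source was not tested. Replicate 1 of each genotype stood apart in sex-linked transcripts. Xist, transcribed from the inactive X chromosome, was at 4.64 in wild-type replicate 1 and 7.98 in mutant replicate 1, and between 0.56 and 0.86 on the other 4 arrays. Eif2s3y, a Y-linked gene, was at 0.04 and 0.16 on those arrays of replicate 1 and between 8.05 and 11.0 on the others. Read by these 2 transcripts, each genotype held 1 female array, replicate 1, and 2 male arrays, replicates 2 and 3. The sources do not state the sex, and results without replicate 1 are given below.

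Tryptophan is broken down mainly along the kynurenine pathway. Its ring is opened by the dioxygenases Tdo2 or Ido1, the formamidase Afmid releases kynurenine, and kynurenine is then either hydroxylated by Kmo or transaminated to kynurenic acid by Aadat and related aminotransferases. Kynu and Haao carry the hydroxylated branch to an unstable semialdehyde, which Acmsd diverts towards glutarate and complete oxidation, or which closes to quinolinate, the substrate of Qprt for NAD synthesis. Lysine enters through the mitochondrial enzyme Aass, Aadat transaminates the aminoadipate that follows, and Gcdh oxidises glutaryl-CoA, to which both amino acids lead. Ddc decarboxylates aromatic amino acids and makes dopamine in the proximal tubule. In kidney several of these enzymes are known from the proximal tubule.

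Mutant kidneys had lower transcript levels of Aadat, Kmo, Acmsd, Ddc, Gcdh and Haao. These 6 of 10 fell past an adjusted p of 0.05 (limma, Benjamini-Hochberg over all probes), 0 rose, and all 10 fitted differences were negative. Over all genes tested 1.59% fell and 5.67% rose at the same threshold, so that 78.1% of the called genes were higher, or 63.5% after quantile normalization and 65.2% after cyclic loess. The falls ranged from 1.67 log2 units for Aadat, to 31.4% of the wild-type level, down to 0.67 log2 units for Haao, to 62.7%. The median difference of the 10 was -0.91 log2, and that of all genes tested was 0.08. The 4 that did not pass were Afmid, Kynu, Aass and Qprt, with differences from -1.26 to -0.48. In 9 of the 10 all mutant arrays lay below all wild-type arrays, with Qprt the exception, against 8.89% of all genes with a value on every array.

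**Figure D1:**
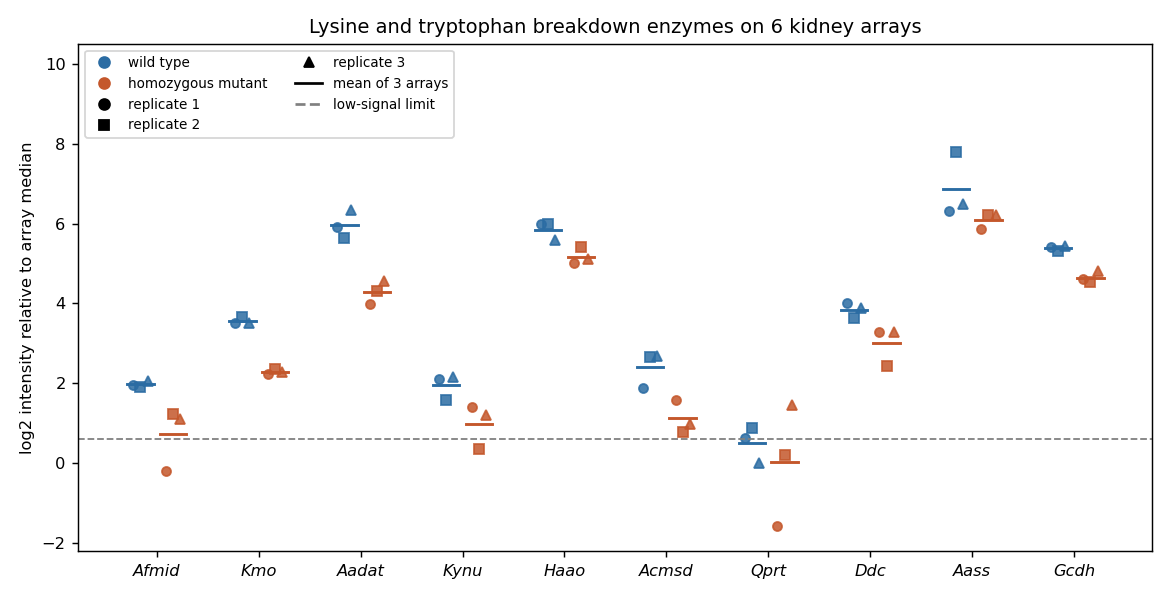
Log2 intensity relative to the array median (vertical axis) of each enzyme on each of the 6 arrays, with replicates as symbols, a bar at the mean of 3 arrays and a dashed line at the low-signal limit of 0.60. Mutant symbols lie below wild-type symbols for all genes but Qprt; heights of different genes come from different probes and are not comparable.

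With only replicates 2 and 3 of each genotype, 4 of the 10 passed, namely Aadat, Kmo, Acmsd and Gcdh. Leaving out single arrays gave 4 where the array was any of the wild-type ones or mutant replicate 3, and 5 where it was mutant replicate 1 or 2. With no intensity trend in the prior variance only Kmo passed, and 6 genes of all those tested were then called lower.

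Afmid, the formamidase that releases kynurenine, was at 3.91, 3.77 and 4.17 times the array median in wild-type replicates 1 to 3 and at 0.88, 2.36 and 2.16 in mutants. The wild-type arrays were close together, whereas mutant replicate 1 was dim and the other mutant arrays were not. The difference was -1.26 ± 0.35 log2 units and missed the threshold (limma, adjusted p = 0.0537). It passed under 8 of 22 alternatives in processing, threshold or arrays used, quantile normalization and cyclic loess among them. The 8 include a laxer threshold of 0.1 and the fit without mutant replicate 2 (limma, adjusted p = 0.0493). Without mutant replicate 1 the difference was -0.81.

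Kmo, the flavin-dependent monooxygenase that makes 3-hydroxykynurenine, was at 11.4, 12.6 and 11.3 in wild type and at 4.67, 5.16 and 4.84 in mutants. Both groups were tight, with SDs of 0.09 and 0.07 log2, and far apart. Kmo fell by 1.27 ± 0.15 log2 units, 2.41-fold (limma, adjusted p = 0.00018). It was the 1 enzyme that passed under every one of the 22 alternatives. Its difference was -1.29 within replicate 1 and -1.26 within replicates 2 and 3.

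Aadat encodes the aminotransferase that acts in both pathways, on kynurenine and on aminoadipate. Its level was 59.8, 49.8 and 81.1 in wild type and 15.9, 19.8 and 23.6 in mutants, so that the lowest wild-type array was above the highest mutant array by a wide margin. Aadat fell by 1.67 ± 0.19 log2 units, 3.19-fold (limma, adjusted p = 0.00011), and ranked 27 of 14817 genes in the size of the fitted decrease. It passed in all fits that lacked 1 array. With no intensity trend the adjusted p was 0.0608, against at most 0.00345 in the other alternatives. The difference was -1.91 within replicate 1 and -1.55 within replicates 2 and 3.

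Kynu, the hydrolase that cleaves 3-hydroxykynurenine, was at 4.30, 3.00 and 4.49 in wild type and at 2.65, 1.28 and 2.30 in mutants. Mutant replicate 2 was dim, and the gap between the lowest wild-type and the highest mutant array was small. The difference was -0.97 ± 0.31 log2 units and did not pass (limma, adjusted p = 0.102). It passed under 2 of 22 alternatives, array weights (0.0482) and a replicate block (0.0346), and the adjusted p reached 0.345 in the others.

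Haao, the dioxygenase that opens the ring of 3-hydroxyanthranilate, was at 63.4, 63.1 and 47.7 in wild type and at 32.3, 42.4 and 34.4 in mutants. Wild-type replicate 3 and mutant replicate 2 came nearest to each other without overlapping. Haao fell by 0.67 ± 0.16 log2 units, 1.59-fold (limma, adjusted p = 0.023). It no longer passed when mutant replicate 1 or 3 or one of the wild-type replicates 1 and 2 was left out, or with only replicates 2 and 3, at adjusted p between 0.0662 and 0.17, against a range of 0.00647 to 0.243 over all alternatives. The other Haao probe, which played no part in the choice of members, gave 25.6, 23.4 and 22.5 in wild type and 13.6, 14.8 and 14.6 in mutants. Its groups were tighter, and it fell by 0.73 ± 0.13 log2 units (limma, adjusted p = 0.00375).

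Acmsd, the decarboxylase that turns the pathway away from quinolinate, was at 3.67, 6.28 and 6.40 in wild type and at 2.98, 1.73 and 1.98 in mutants. The replicate 1 arrays of both genotypes lay close together, and replicates 2 and 3 were far apart. Acmsd fell by 1.28 ± 0.28 log2 units, 2.43-fold (limma, adjusted p = 0.0163). The difference was -0.30 within replicate 1, with 1 array per genotype, and -1.78 within replicates 2 and 3; whether these differ was not tested. The call depended on replicates 2 and 3 of both genotypes: with any of these 4 arrays left out it did not pass, at adjusted p between 0.0592 and 0.0854, against 0.00276 to 0.156 over all alternatives.

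Qprt, which makes nicotinate mononucleotide from quinolinate, was at 1.55, 1.85 and 1.00 in wild type and at 0.33, 1.15 and 2.74 in mutants. The mutant arrays spanned the whole wild-type range and both means were dim, so no fold is given. The fitted difference was -0.48 ± 0.63 log2 units (limma, adjusted p = 0.771), and it was 0.32 without mutant replicate 1. No change of Qprt was called, and whether the low signal hid one was not tested.

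Ddc, the aromatic amino acid decarboxylase, was at 16.2, 12.4 and 14.9 in wild type and at 9.70, 5.43 and 9.73 in mutants. Mutant replicate 2 was the lowest array, and the groups did not overlap. Ddc fell by 0.85 ± 0.21 log2 units, 1.80-fold (limma, adjusted p = 0.0327). It did not pass when wild-type replicate 1 or 3 or mutant replicate 2 was left out, or with no floor on low values, or with only replicates 2 and 3, at adjusted p between 0.0565 and 0.125, against 0.00245 to 0.269 over all alternatives.

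On the lysine side, Aass, the bifunctional enzyme of the first steps, was at 79.1, 223 and 90.3 in wild type and at 58.2, 74.7 and 74.4 in mutants. Wild-type replicate 2 stood far above the other arrays, while wild-type replicate 1 was only just above mutant replicate 2. The difference was -0.77 ± 0.30 log2 units and did not pass (limma, adjusted p = 0.192). It was -0.30 without wild-type replicate 2, so that this array decides its size.

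Gcdh, glutaryl-CoA dehydrogenase, was at 42.4, 39.7 and 43.3 in wild type and at 24.5, 23.2 and 27.9 in mutants. Both groups were narrow and well separated. Gcdh fell by 0.74 ± 0.13 log2 units, 1.66-fold (limma, adjusted p = 0.00399). It passed in all fits that lacked 1 array, and its difference was -0.79 within replicate 1 and -0.71 within replicates 2 and 3.

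**Figure D2:**
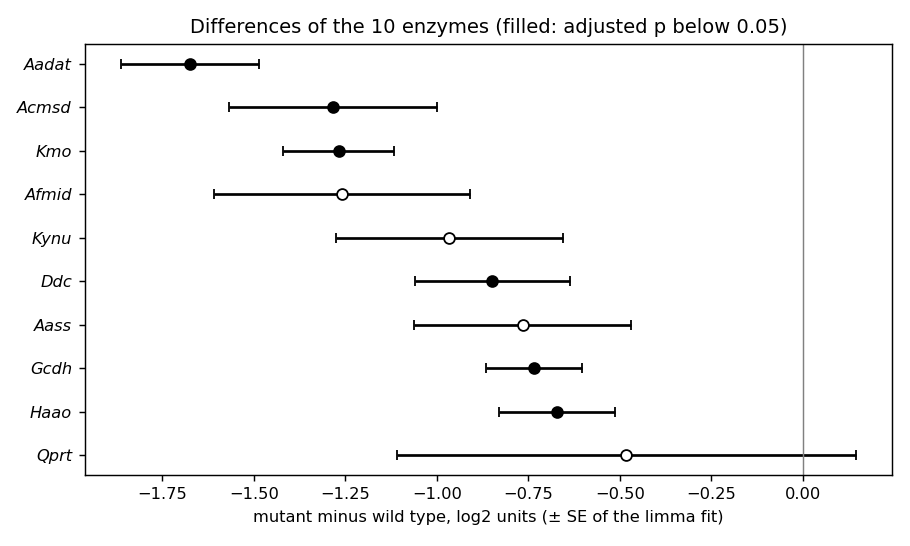
Mutant minus wild-type difference in log2 units (horizontal axis) of each enzyme with the SE of the limma fit, filled where the adjusted p was below 0.05. Differences run from -1.67 for Aadat to -0.48 for Qprt, and the widest error, 0.63, is that of Qprt.

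Whether Aadat fell by more than the other enzymes was asked through its within-array log2 ratio to each of them, compared between genotypes. The ratio was lower in all mutant arrays than in all wild-type arrays against Haao (change of -1.001), Gcdh (-0.94) and Ddc (-0.83). Each of these 3 gave an exact two-sided permutation p of 0.1, the smallest that 3 against 3 arrays allow, or 0.3 adjusted over the 9 ratios. Against Kmo, Acmsd, Afmid, Kynu, Aass and Qprt the ratios overlapped between genotypes (exact permutation p from 0.2 to 0.5). With 3 arrays a group this test could not pass 0.05, so it does not settle whether Aadat fell by more than another enzyme.

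**Figure D3:**
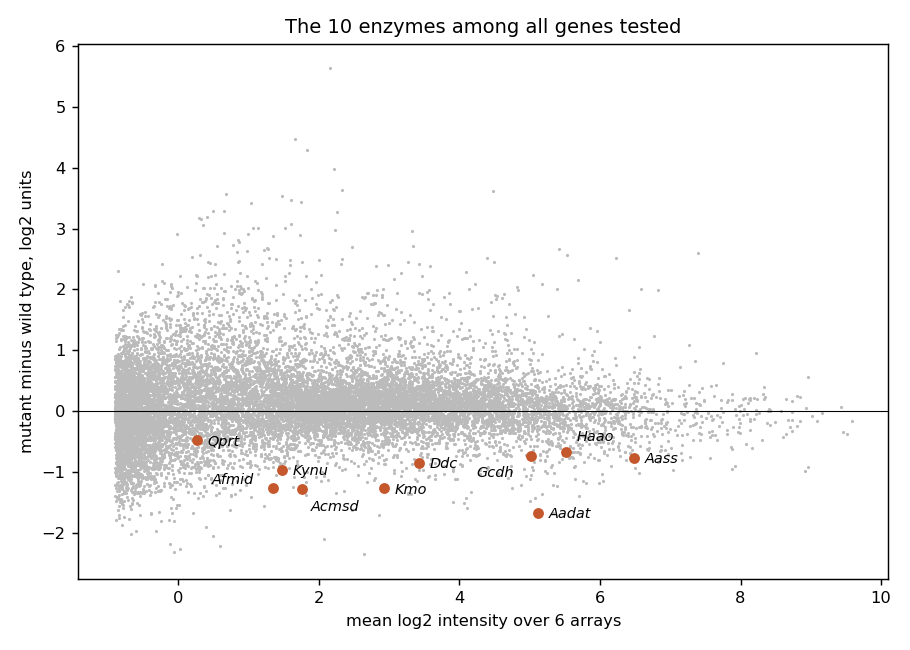
Difference in log2 units against mean log2 intensity over 6 arrays for all 14817 genes tested (grey), with the 10 enzymes in colour. Aadat lies near the lower edge of the cloud for genes of its signal, and the spread of grey points widens to the left, where Qprt lies.

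The genes with the most similar profile to Aadat were sought among 13469 genes with a value on every array, by the root mean square difference of the centred log2 levels over the 6 arrays. The 5 closest were Rhov, Gpr82, Atp8b3, Efcab6 and 4833439F03Rik, at 0.20, 0.20, 0.21, 0.22 and 0.24 log2. All but Rhov were dim on every array, and Rhov was dim on the mutant arrays, at 0.91, 1.01 and 1.40. Among the enzymes, Kmo came nearest, at rank 26 with 0.36 log2, followed by Afmid at rank 60 and Gcdh at rank 191, while Qprt was at rank 8368. All these distances include the genotype difference.

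Sequence before the start site is shown for Aadat and Kmo, the enzymes with the smallest adjusted p, and for Haao, because letters of a tubule factor's motif were found in the first and the last. RefSeq start sites (GRCm38.p6) were matched for 9 of the 10 genes, with 2 starts for Ddc, and the 250 bases before each start were searched on both strands. The windows below run 5′ to 3′ on the gene's strand and end at the base before the start. Capitals mark a match to CAAAGTCCA, a form of the HNF4 motif, in Aadat, here as its reverse complement TGGACTTTG beginning 72 bases before the start, and to GTTAAT, the core of the HNF1 motif, in Haao, here as ATTAAC. Kmo held neither.
Aadat, chr8:60505874-60506123, plus strand: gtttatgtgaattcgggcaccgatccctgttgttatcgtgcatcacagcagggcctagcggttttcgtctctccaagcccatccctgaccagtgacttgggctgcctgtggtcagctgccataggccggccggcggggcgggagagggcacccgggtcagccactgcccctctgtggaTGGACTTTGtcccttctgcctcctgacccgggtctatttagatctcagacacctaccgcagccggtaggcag
Kmo, chr1:175631943-175632192, plus strand: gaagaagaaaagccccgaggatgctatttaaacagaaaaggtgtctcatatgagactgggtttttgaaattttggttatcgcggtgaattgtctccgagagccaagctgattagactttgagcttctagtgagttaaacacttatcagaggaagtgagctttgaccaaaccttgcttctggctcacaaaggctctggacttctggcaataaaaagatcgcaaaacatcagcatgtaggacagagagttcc
Haao, chr17:83846791-83847040, minus strand: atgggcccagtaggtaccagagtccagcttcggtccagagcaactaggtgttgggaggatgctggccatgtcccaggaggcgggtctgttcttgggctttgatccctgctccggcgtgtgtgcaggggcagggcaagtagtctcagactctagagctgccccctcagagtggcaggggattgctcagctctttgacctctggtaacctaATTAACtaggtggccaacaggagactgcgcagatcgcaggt

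The HNF4 letters were present in 1 of the 10 enzyme windows and in 0.384% of 32851 windows of all genes, and the HNF1 core in 1 of 10 and 6.43%. TATAAA occurred in 1 of 10, a Ddc start, and in 12.4% of all. CCAAT was found in 3 of 10 windows and 33.8% of all, and GGGCGG in 3 of 10 and 32.7% of all, or 49.8% of the windows of tested genes. The cyclic AMP element TGACGTCA was in 0 of the 10 windows and 1.55% of all. None of these motifs overlapped another in the windows shown. The G and C content was 61.2% for Aadat, 42.8% for Kmo and 58.4% for Haao, with a median of 52.4% over all windows. A match is a run of letters only and shows no binding. Of 4 hepatocyte nuclear factor genes listed 2 had a probe. Hnf4g was dim on all arrays, with no usable value in wild-type replicate 1. Its values in wild-type replicates 2 and 3 were raised to the floor for low values, 0.290, so the size of the difference depends on the floor. Its difference of 1.77 ± 0.58 log2 units did not pass (limma, adjusted p = 0.116). The other gene fell. This was Hnf4a, a nuclear receptor gene active in proximal tubule cells, at 67.0, 70.1 and 53.5 in wild type and 34.7, 41.2 and 36.2 in mutants, which fell by 0.76 ± 0.15 log2 units (limma, adjusted p = 0.00685); with no intensity trend it did not pass.

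Among other enzymes of tryptophan metabolism, Aldh8a1 and Inmt fell. Of 15 listed, 14 had a probe and 12 were tested; 2 fell, 0 rose, and the median difference was -0.03. Of the 6 above the low-signal limit on all wild-type arrays, 5 differences were negative, with a median of -0.36. Of the 6 above it on no wild-type array, 5 were positive. Sorting by wild-type level alone puts genes that rise from dim levels into the second set, so it cannot show that direction follows signal. In that set Il4i1 differed by 2.09 ± 0.66 log2 units and Aanat by 1.38 ± 0.57 (limma, adjusted p = 0.0989 and 0.232). Il4i1 in wild-type replicates 1 and 3 and Aanat in wild-type replicate 1 were raised to the floor, so the sizes depend on it. Both were above the limit on 2 mutant arrays. Tdo2, which starts the pathway, was dim on all arrays, between 0.41 and 0.66, and Ido1, also dim, was not tested. Aldh8a1, the dehydrogenase that follows Acmsd, was at 147, 157 and 135 in wild type and 96.1, 91.4 and 89.1 in mutants, and fell by 0.66 ± 0.15 log2 units (limma, adjusted p = 0.0185). Inmt, which methylates tryptamine, was at 43.2, 97.0 and 54.8 in wild type and 17.0, 42.9 and 24.9 in mutants. Its groups were separated by a narrow gap, and it fell by 1.22 ± 0.31 log2 units (limma, adjusted p = 0.0337). The number lower was 0 when replicate 3 of either genotype was left out, and 1 when replicate 2 of either genotype or mutant replicate 1 was; 1 rose when wild-type replicate 2 or mutant replicate 3 was left out.

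Other genes of the lysine route and of glutaryl-CoA oxidation all differed in the negative direction. Of 15 listed 14 were tested; 4 fell, 0 rose, and the median difference was -0.50, while 42.5% of all genes tested had a negative difference. Acat1, the thiolase that makes acetyl-CoA at the end of the route, was at 33.9, 45.0 and 42.5 in wild type and 23.2, 25.7 and 24.9 in mutants, and fell by 0.71 ± 0.14 log2 units (limma, adjusted p = 0.00846). Etfdh, which takes up the electrons that Gcdh releases, fell by 0.66 ± 0.14, Pipox, the pipecolate oxidase, by 0.66 ± 0.14 and Hadh, a hydroxyacyl-CoA dehydrogenase, by 0.61 ± 0.14. In 11 of the 14 tested, these 4 among them, all mutant arrays lay below all wild-type arrays. The other genes overlapped or lacked a value on an array. Over all genes with a value on every array the share without overlap in this direction was 8.89%. With replicate 3 left out, the number lower was 1 for the wild-type array and 2 for the mutant array. Over all alternatives it ran from 0 to 7.

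NAD synthesis and nicotinamide genes gave 1 call among 11 tested, and 10 of the 11 differences were negative with a median of -0.39. Nnmt, which methylates nicotinamide, was at 1.34, 2.27 and 2.06 in wild type and at 5.79 and 5.05 in mutant replicates 1 and 2, with no value in replicate 3. It rose by 1.55 ± 0.31 log2 units (limma, adjusted p = 0.00975), in a fit on 5 arrays, and 0 genes of the list rose without mutant replicate 1 or 2. Without mutant replicate 1, 1 gene of the list fell.

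Of 12 transporters of lysine and tryptophan listed, 10 had a probe and 7 were tested; 2 fell and 0 rose. Cltrn, the partner protein of neutral amino acid transporters in the brush border, was at 106, 161 and 141 in wild type and 82.9, 58.3 and 59.0 in mutants, and fell by 1.02 ± 0.19 log2 units (limma, adjusted p = 0.00555). Slc3a1, the heavy subunit of the cystine and dibasic amino acid transporter, was at 30.5, 10.4 and 11.4 in wild type and 6.50, 4.71 and 7.26 in mutants. Wild-type replicate 1 was well above the other wild-type arrays, and Slc3a1 fell by 1.34 ± 0.32 log2 units (limma, adjusted p = 0.0244). Without mutant replicate 2, 1 transporter fell, and over all alternatives the number lower ran from 0 to 4. Of 5 genes for vitamin B6 and flavin cofactors, which Aadat, Kynu, Ddc, Kmo and Gcdh need, 3 were tested (Pdxk, Pdxp and Rfk) and 0 passed by limma. Pdxp, higher in mutants by 0.54 ± 0.22 log2 units, had an unadjusted p of 0.0268.

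**Figure D4:**
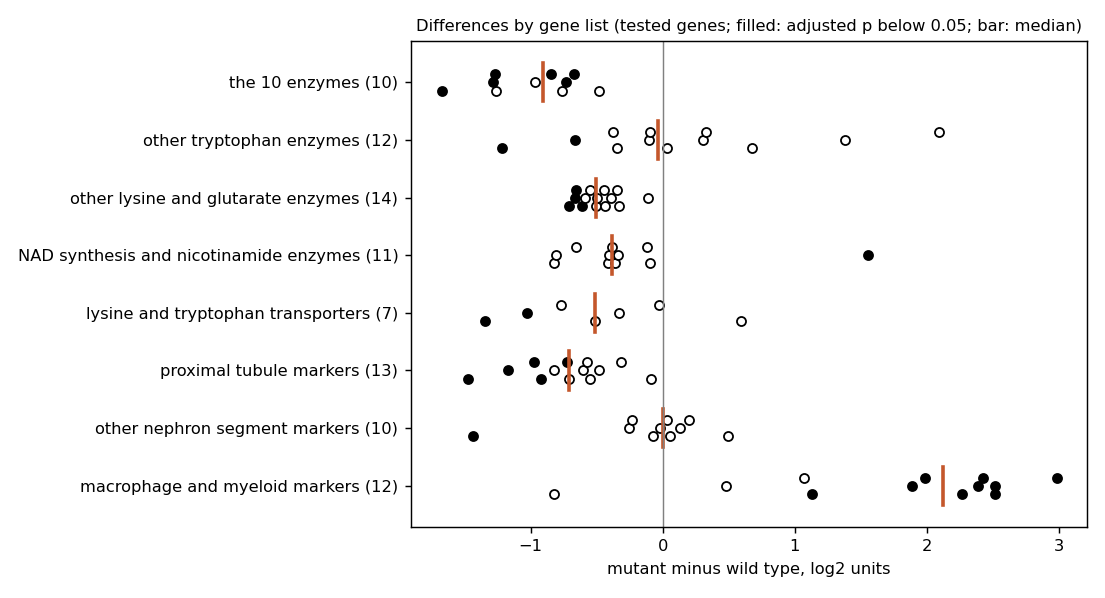
Mutant minus wild-type differences in log2 units (horizontal axis) of the tested genes of 8 lists, filled where the adjusted p was below 0.05, with a bar at the median. Medians are -0.91 for the 10 enzymes, -0.50 for other lysine and glutarate enzymes, -0.03 for other tryptophan enzymes, -0.71 for proximal tubule markers and 2.12 for macrophage and myeloid markers.

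Proximal tubule markers and macrophage markers had median differences of opposite sign. For 13 proximal tubule markers the differences were all negative with a median of -0.71, but 5 passed and 8 did not. The phosphate transporter Slc34a1 fell by 0.72 ± 0.14 log2 units (limma, adjusted p = 0.00783). Slc5a2, with dim means in both genotypes, differed by -0.08 ± 0.49 (limma, adjusted p = 0.958). The summed level of the 13 was between 1119 and 1153 array medians in wild type and between 574 and 680 in mutants. Fbp1 alone was between 660 and 721 and between 304 and 414, so this sum rests mainly on 1 probe. The summed level of the 10 enzymes was between 286 and 415 and between 152 and 184. Aass gave 223 of the 415, in wild-type replicate 2. Here and below, such sums weight the brightest probes most. Markers of other nephron segments, 11 with a probe, summed to between 493 and 625 in wild type and between 540 and 656 in mutants, and 5 of 10 tested had negative differences. Of these 1 fell: Pvalb, parvalbumin of the distal convoluted tubule, was at 30.7, 33.9 and 21.3 in wild type and 7.95, 16.6 and 8.43 in mutants, a fall of 1.44 ± 0.25 log2 units (limma, adjusted p = 0.00337), though not with only replicates 2 and 3 (adjusted p = 0.064) or with no intensity trend (0.15), the highest over its alternatives. For 12 macrophage and myeloid markers 11 differences were positive and 9 passed, with sums between 42.5 and 47.7 in wild type and between 181 and 267 in mutants. Adgre1, dim on all arrays, differed by -0.82 ± 0.64 log2 units, and Itgam, also dim, by 0.48 ± 0.55 (limma, adjusted p = 0.589 and 0.731). Itgax rose by 1.13 ± 0.31 (limma, adjusted p = 0.0495). Of 9 hepatocyte markers with a probe 3 had dim means in both genotypes, and 2 of 7 tested rose. These were Tf, transferrin, by 1.07 ± 0.17 log2 units and Fgb, a fibrinogen chain, by 0.92 ± 0.20 (limma, adjusted p = 0.0014 and 0.0167). Fgb did not pass after cyclic loess or when replicate 3 of either genotype, wild-type replicate 2 or mutant replicate 1 was left out, and neither passed with no intensity trend. The sums of the hepatocyte list were between 124 and 230 in wild type and between 186 and 223 in mutants. In whole kidney RNA, fewer proximal tubule cells and less enzyme RNA per cell cannot be told apart, and the part of these markers in the differences of the enzymes was not tested.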

How the data were processed

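The deposited values are linear intensities, 1 for each of 34937 probes on an array. From the values, the authors had subtracted background, since some intensities are negative, and scaled each array to a median between 0.994 and 0.997. The software and methods for this are not stated in the sources used here. After division by the array median, values not above 0 were set to missing and the rest were raised to a floor of 0.290 (the 10th percentile of positive values) before log2. Probes needed values on 2 arrays per genotype, and the dimmest 25% were left out, which left 25834 probes. The test was that of limma 3.58.1 (R 4.3.3), two-sided, with an intensity trend, and adjusted by Benjamini-Hochberg over those probes. The code was tested on simulated data. The number of arrays limits precision.

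The members and lists were chosen with earlier results of these data known. Besides the 10 members, the rule named genes of each pathway list past the threshold, or the 4 with the smallest p where none or more than 4 passed, the first markers of each list, and the 5 genes closest to Aadat. Tdo2, Ido1, Il4i1, Aanat, Hnf4g, Fbp1, Pvalb, Cyp2e1, Fgb and Tf were named after their values were seen. The alternatives varied scaling, low values, filters, variance model, replicate block, threshold, probe summary and the arrays left out.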

Additional observations from a re-analysis of the deposited data

How the results depend on the processing

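Of 22 alternatives, 6 left out 1 array. The 10 enzymes kept negative differences under all of them except Qprt, which ranged from -1.20 to 0.32 with 1 array left out and was at 0.38 with only replicates 2 and 3; it was dim and not called in any. Their median stayed between -1.13 and -0.81, against -0.91 as reported. The number of enzymes lower was 4 to 5 with 1 array left out, 1 with no intensity trend and 3 at an adjusted p of 0.01; the number higher was 0 under every alternative. Over all genes, those lower numbered 403 after quantile normalization, 398 after cyclic loess, 6 with no intensity trend, 88 at an adjusted p of 0.01 and 369 at 0.1, against 235. Those higher numbered 143 with no intensity trend, 456 at an adjusted p of 0.01 and 489 with only replicates 2 and 3, against 840. With 1 array left out, 115 to 250 were lower and 481 to 814 higher; these fits have fewer arrays, and for the other settings the cause was not tested. With a replicate block, 363 genes and 9 of the 10 enzymes, all but Qprt, were lower. The shared numbers were not taken as pairs, since deviations of same-numbered arrays correlated at 0.07, 0.02 and 0.07 over probes. Each array did correlate best with its own number. Replicate 1 also differed from replicates 2 and 3 in sex-linked transcripts in both genotypes, and the main fit has no term for this. Qprt had dim means in both genotypes, Kynu was dim in mutant replicate 2 and Afmid in mutant replicate 1. Whether low signal kept these enzymes from passing was not tested.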
